A study of Mus musculus with 4 samples.

Results

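The genes described here are the cytoplasmic actins Actb and Actg1 and 8 genes of proteins that bind actin monomers or filament ends, namely Tmsb4x, Tmsb10, Pfn1, Cfl1, Dstn, Cap1, Capg and Gsn. They were chosen by name, and each of the 10 matched 1 of the 50600 gene rows of the deposited table. RNA-seq libraries were made from OG2ES, a mouse embryonic stem (ES) cell line of inner cell mass origin, grown in mES medium with 2i, the inhibitor pair that keeps such cells in the naive state. There were 2 libraries from cells deficient in Myh9 (genotype Myh9 KO) and 2 libraries from wild-type cells (genotype WT), with the medium the same in both groups and no further treatment. The labels name no separate KO clones, and a trait of the KO line and the loss of Myh9 cannot be told apart. Separate cultures are not stated for the replicates, so p-values measure only how these libraries vary, which can be technical. The comparison made is Myh9 KO against WT.

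Actin monomers join and leave filaments, and the proteins studied here set how many monomers are free. Beta-thymosins (Tmsb4x, Tmsb10) hold monomers back from assembly, whereas profilin (Pfn1) recharges them with ATP and delivers them to growing ends. Cofilin (Cfl1) and destrin (Dstn) sever old filaments, Cap1 helps to recycle the released subunits, and Capg and gelsolin (Gsn) cap filament ends, gelsolin also severing them. Non-muscle myosin IIA, whose heavy chain is encoded by Myh9, pulls on the filaments. Free actin monomers also bind the MRTF cofactors of the transcription factor SRF, which binds CArG boxes and has cytoplasmic actin genes among its known targets.

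The targeted gene was lower in the KO libraries, at 9 in both Myh9 KO libraries, against 83 and 100 in WT 1 and WT 2 (log2 fold change -3.20, SE 0.12, limma adjusted p = 0.00675). Library totals ran from 992098 to 992317, so the deposited whole numbers behave like values scaled to 1 common total. The number of reads behind them is unknown. Whether they were also divided by gene length is not stated, so levels are compared here between libraries and not between genes. Ratios and sums of different genes given below are likewise compared between libraries only. How a sum weighs its genes depends on that unknown step. All 8 ES cell markers examined were present, and their sums were 8308 and 8110 in Myh9 KO, against 9518 and 9759 in WT. By the rule of both fits 2 of the 8 fell, Sox2 and Dppa5a, and 0 rose. Log2 fold changes were positive in 4 of the 8 and negative in 4. Dppa5a, a large part of the sum, had 3438 and 3205 in Myh9 KO, against 4755 and 4841 in WT. Pou5f1 had 3104 and 3189, against 3045 and 3122, and Zfp42 had 210 and 181, against 140 and 142. Of 12 feeder fibroblast markers 9 were at 0 in every library, including Col1a1, Col1a2, Col3a1 and Dcn, and the list summed to 40 and 41 in Myh9 KO, against 54 and 56 in WT, mostly from Fstl1, which fell by the same rule (log2 fold change -0.55). Of 6 macrophage markers 5 were at 0 in every library, with Ptprc, Csf1r and Adgre1 among them. The list summed to 34 and 31 in Myh9 KO, against 27 and 29 in WT, all from Cd68. The 6 endoderm markers summed to 5 and 6 in Myh9 KO, against 1 and 2 in WT, with Gata6, Sox7, Foxa2 and Pdgfra at 0 in all 4 libraries. Gata4 made up nearly all of that sum, at 5 in both Myh9 KO libraries, against 1 and 2 in WT. It was not called by both fits (limma adjusted p = 0.092). The part of these markers in the results was not tested. In bulk RNA, fewer cells with a transcript and less of it per cell cannot be told apart.

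RefSeq promoter entries on GRCm38.p6 were found for 9 of the 10 genes, which have 13 start sites among them (Actb had no entry). The only Capg start lay 5256 bases from the gene start in the deposited table, where no window was searched. The Gsn starts lay 21, 10364 and 26000 bases from its gene start. A CArG box, the SRF element, was searched for on both strands from 250 bases before to 50 bases after each start. It was found at 1 start, that of Actg1, from position -90, and occurs in 1.63% of all 32851 such windows. The stretches upstream of Actg1 and of both thymosin genes are shown as examples. Tmsb4x was not called by both fits, and Capg and Dstn, which had the highest and lowest folds, are not shown. Each is 100 bases long, lies outside the gene's span in the deposited table and is read 5′ to 3′ on the minus strand.
Actg1, chr11:120348546-120348645, positions -150 to -51: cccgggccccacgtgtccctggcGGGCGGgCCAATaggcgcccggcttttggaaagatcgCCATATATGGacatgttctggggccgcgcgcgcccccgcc
Tmsb10, chr6:72958799-72958898, positions -150 to -51: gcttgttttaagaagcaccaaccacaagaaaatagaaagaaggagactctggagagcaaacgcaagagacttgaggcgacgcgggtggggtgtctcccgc
Tmsb4x, chrX:167209319-167209418, positions -200 to -101: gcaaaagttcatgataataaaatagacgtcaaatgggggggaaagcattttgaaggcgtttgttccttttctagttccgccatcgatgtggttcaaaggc
Capitals mark, in order, the GC box, the CCAAT box and the CArG box of Actg1. None of the motifs searched, which were the CArG box, the GC box GGGCGG, the box CCAAT and the TATA box TATAAA on both strands, lies in the stretches of Tmsb10 and Tmsb4x. In the full windows, GGGCGG was found in 11 and CCAAT in 5 of the 13 windows, some of them of 1 gene, against 35.7% and 37.4% of all windows. TATAAA was found in 0 of the 13, against 13.6%. These are matches of letters, not sites shown to be bound.

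Myh9 KO and WT were compared with limma on log2(value + 1) over the 11231 genes whose mean value reached 1, with Benjamini-Hochberg adjustment, and folds are on the scale of value + 1. A second fit with random decimals added to the whole numbers guarded against equal replicates that leave no spread. A gene is said to have risen or fallen where both fits gave an adjusted p under 0.05 in the same direction. Of the 10 genes, all of which were tested, 3 rose (Capg, Tmsb10 and Actb), 1 fell (Actg1) and 6 were not called by both fits. Among all genes tested, 5.13% rose and 5.82% fell (11% in all). The limma test alone called 7.17% higher and 7.96% lower (15.1% in all), and the fit with random decimals alone 11.1% higher and 12% lower (23.1% in all). Among the 1548 genes with means of 100 or more, to which 8 of the 10 belong, 21.4% were called (10.5% higher and 10.9% lower), and of those 8 genes 3 were. The log2 fold changes of the 10 genes were positive in 5 and negative in 5, with a median of 0.04 (0 over all tested genes).

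**Figure D1:**
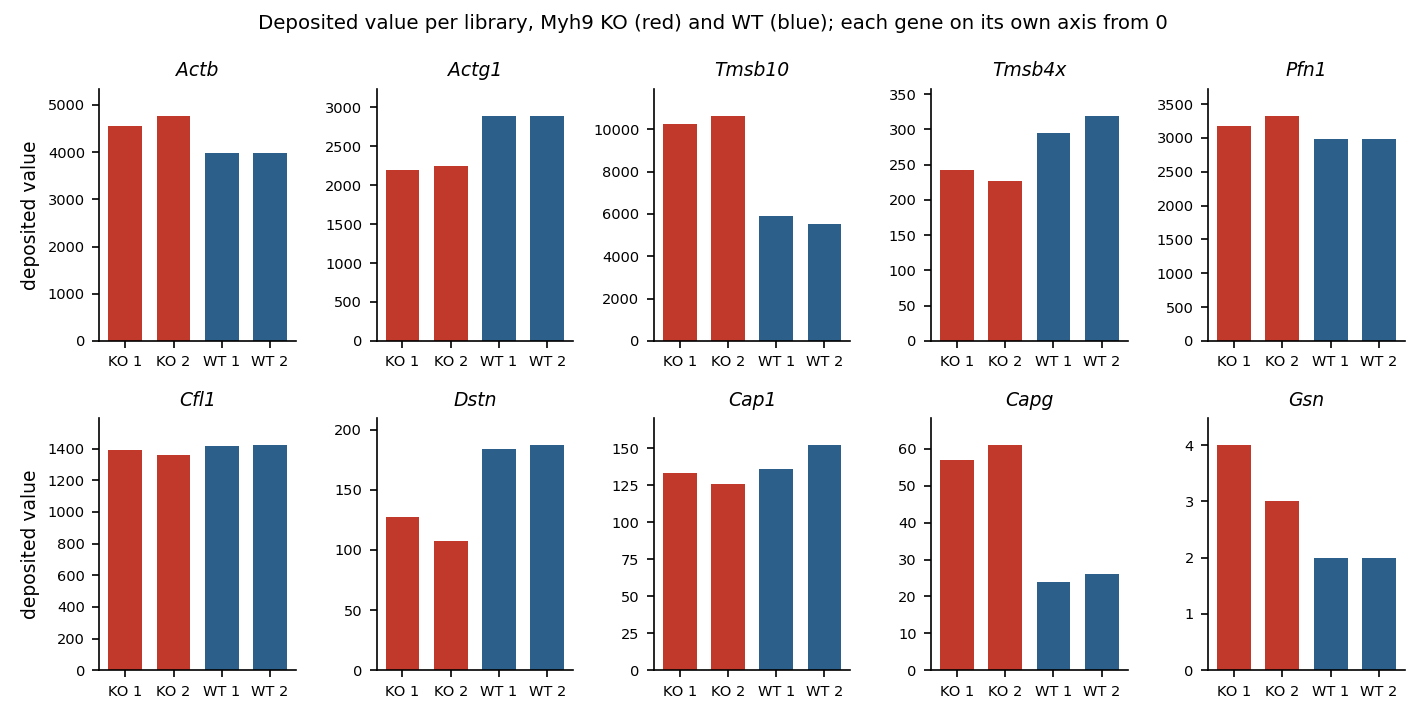
Deposited value of each gene (y axis, each panel from 0) in the 2 Myh9 KO libraries (red) and the 2 WT libraries (blue). Actb, Tmsb10, Pfn1, Capg and Gsn are higher in both Myh9 KO libraries, and Actg1, Tmsb4x, Cfl1, Dstn and Cap1 are lower.

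The cytoplasmic actins moved in opposite directions while their sum stayed close to the WT sum. Actb (ENSMUSG00000029580, mm10 chromosome 5, 142903115 to 142906754), which encodes beta-actin, had values of 4565 and 4767 in Myh9 KO 1 and Myh9 KO 2, against 3993 and 3988 in WT 1 and WT 2. Both Myh9 KO libraries lay above both WT libraries, and the WT libraries lay closer together than the Myh9 KO libraries. Actb rose to a mean of 4666 ± 143 in Myh9 KO, against 3991 ± 3.54 in WT (SD, n = 2 each), which is 1.17-fold (95% confidence interval 1.09 to 1.25, log2 fold change 0.23, SE 0.03, limma adjusted p = 0.0469). Of its 50-base words 9.12% occur in other genes and 1.03% in Actg1.

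Actg1 (ENSMUSG00000062825, mm10 chromosome 11, 120345690 to 120348542), which encodes gamma-actin, had values of 2192 and 2247 in Myh9 KO, against 2884 and 2888 in WT. The groups again did not overlap, with the KO libraries low. It fell to 0.769-fold of WT (95% confidence interval 0.738 to 0.802, log2 fold change -0.38, SE 0.02, limma adjusted p = 0.0101). Of its 50-base words 37.4% occur in 22 other genes. Among these, 4 are near-copies of Actg1, and all 4 were at 0 in every library; how shared reads were divided is not stated.

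The sum of Actb and Actg1 was 6757 and 7014 in Myh9 KO, against 6877 and 6876 in WT, so the WT sums lay between the KO sums. As a share of all values it was 0.694 ± 0.0183% in Myh9 KO and 0.693 ± 5.65e-05% in WT (SD, n = 2 each, exact two-sided permutation p = 1). The Actg1 value divided by the Actb value was 0.480 and 0.471 in Myh9 KO, against 0.722 and 0.724 in WT. The log2 ratio was lower in Myh9 KO by a difference of -0.60 and the groups did not overlap, although the exact two-sided permutation test of 2 against 2 libraries cannot give a p below 0.333, the value found. This ratio is taken within a library and so does not change when a library is multiplied by a constant. Actin isoforms of muscle were nearly absent: Acta1, Actc1 and Actg2, and also Actbl2, were at 0 in all 4 libraries, and Acta2 was at 0 except for a value of 2 in WT 2.

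**Figure D2:**
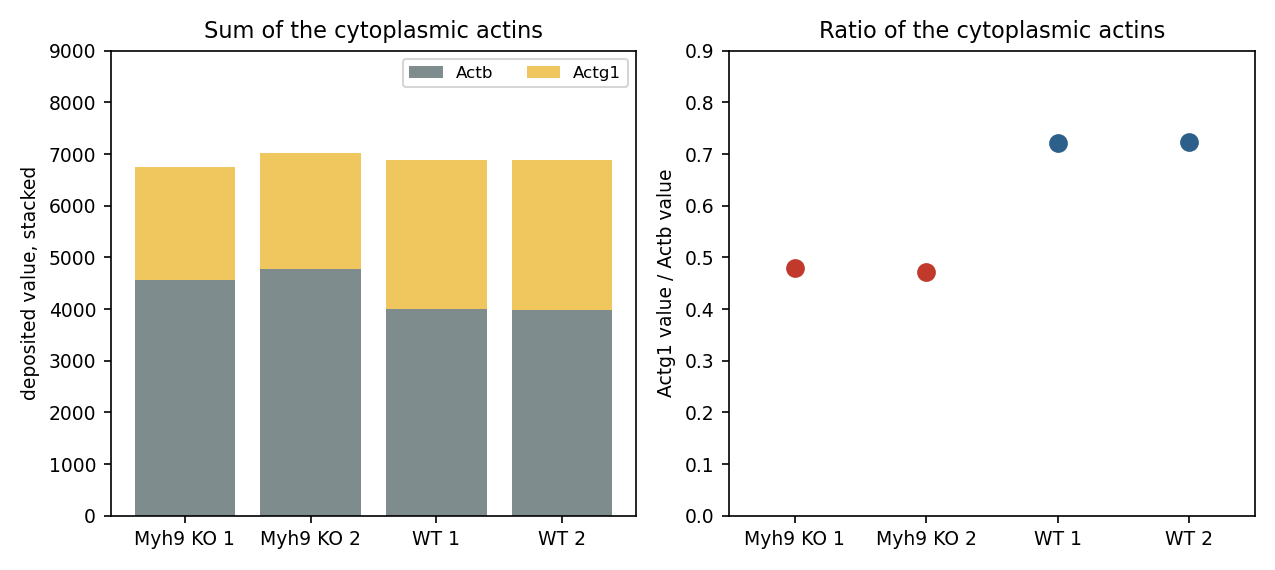
Left, deposited values of Actb and Actg1 stacked per library. Right, the Actg1 value divided by the Actb value per library, red for Myh9 KO and blue for WT. The stacked sums lie between 6757 and 7014, while the ratio is 0.480 and 0.471 in Myh9 KO and 0.722 and 0.724 in WT.

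By the distance between log2 values centred over the 4 libraries, the profiles nearest to Actb among 1459 named genes with means of 100 or more were those of Coro1b, Serf2 and Hirip3. Coro1b, a coronin that binds actin filaments, had values of 154 and 158 in Myh9 KO, against 133 and 135 in WT. Nearest to Actg1 were Slc25a5, a mitochondrial ADP/ATP carrier, Scpep1 and Ak1, an adenylate kinase. Slc25a5 had values of 560 and 565 in Myh9 KO, against 732 in both WT libraries. Distances ran from 0.0256 to 0.0313 for Actb and from 0.0163 to 0.0323 for Actg1, over 4 libraries that form only 2 groups.

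Of the beta-thymosin genes Tmsb10 rose, whereas Tmsb4x had lower values in Myh9 KO and was not called by both fits. Tmsb10 (ENSMUSG00000079523, mm10 chromosome 6, 72957347 to 72958748) had values of 10259 and 10632 in Myh9 KO, against 5910 and 5535 in WT. Each KO value was far above both WT values, and the spread within a group was small beside the gap. Tmsb10 rose 1.83-fold (95% confidence interval 1.63 to 2.05, log2 fold change 0.87, SE 0.05, limma adjusted p = 0.0138). Of its 50-base words 27.0% occur in other genes, and its 2 near-copies in the table together had 9 and 7 in Myh9 KO, against 5 and 3 in WT. It lies on chromosome 6, whose tested genes had a median log2 fold change of 0.45.

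Tmsb4x (ENSMUSG00000049775, mm10 chromosome X, 167207093 to 167209315) had values of 243 and 227 in Myh9 KO, against 295 and 319 in WT. Both KO values lay below both WT values, but the limma test did not call the gene (log2 fold change -0.38, SE 0.07, adjusted p = 0.0728). The fit with random decimals gave an adjusted p of 0.0027. After correction for GC content and length its log2 fold change was -0.14 (adjusted p = 0.082). Its GC content is 47.5%, and the fifth of tested genes it belongs to by GC content had a median of -0.07 on the same scale. Its longest transcript has 864 bases. The parts of GC content and of length in that correction were not separated.

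The sum of both thymosins was 1.06% and 1.09% of all values in Myh9 KO, against 0.625% and 0.590% in WT (exact two-sided permutation p = 0.333, the smallest possible). Tmsb10 made up most of that sum in every library. The Tmsb10 value divided by the Tmsb4x value was 42.2 and 46.8 in Myh9 KO, against 20.03 and 17.4 in WT. None of the 50-base words of Tmsb4x occurs in another gene.

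Pfn1, Cfl1 and Cap1 had folds between 0.901 and 1.09, and none of them was called by both fits. Pfn1 (ENSMUSG00000018293, mm10 chromosome 11, 70651850 to 70654644) had values of 3170 and 3323 in Myh9 KO, against 2979 and 2977 in WT. The KO values were the higher ones, by 1.09-fold (95% confidence interval 1.01 to 1.17), and were not called by limma (adjusted p = 0.121, and 0.048 with random decimals). Its GC content is 59.2%, and after correction for GC content and length the log2 fold change was 0.02, against 0.12 without that step.

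Cfl1 (ENSMUSG00000056201, mm10 chromosome 19, 5490455 to 5495201) had values of 1391 and 1360 in Myh9 KO, against 1418 and 1421 in WT. The KO values lay just below the WT values, and the 95% confidence interval of the fold ran from 0.932 to 1.01 (limma adjusted p = 0.192). Cap1 (ENSMUSG00000028656, mm10 chromosome 4, 122859047 to 122886056) had values of 133 and 126 in Myh9 KO, against 136 and 152 in WT. Its KO 1 and WT 1 values nearly met, and the interval of the fold was 0.746 to 1.09 (limma adjusted p = 0.323). Exons of Cap1 and of the opposite-strand gene Ppt1 share 129 bases, and no step that marks strand is described.

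Dstn (ENSMUSG00000015932, mm10 chromosome 2, 143915320 to 143943324), the relative of cofilin, had the lowest fold of the 10 genes. Its values were 127 and 107 in Myh9 KO, against 184 and 187 in WT. The groups were well apart, but the KO libraries differed from each other by more than the WT libraries did. The fold was 0.630 (95% confidence interval 0.486 to 0.818), with a limma adjusted p of 0.069 and an adjusted p of 0.00081 with random decimals, so Dstn was not called by both. Its GC content is 45.6%, and after correction for GC content and length its log2 fold change was -0.46, against -0.67 without that step. The limma test called Dstn then (adjusted p = 0.00592), with the chromosome median removed (0.0289) and with median centring (0.0142), but not with quantile normalization (0.0644). The Dstn value divided by the Cfl1 value was 0.0913 and 0.0787 in Myh9 KO, against 0.130 and 0.132 in WT. The sum of Cfl1 and Dstn was 0.153% and 0.1478% of all values in Myh9 KO, against 0.1615% and 0.1621% in WT. The sum of Pfn1, Cfl1, Cap1 and Dstn was 0.4859% and 0.4954% in Myh9 KO, against 0.4754% and 0.4775% in WT. For each sum the exact two-sided permutation p was 0.333, the smallest possible.

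Capg (ENSMUSG00000056737, mm10 chromosome 6, 72544391 to 72562983), which caps filament ends without severing, had values of 57 and 61 in Myh9 KO, against 24 and 26 in WT. It rose 2.31-fold with an adjusted p of 0.0137 in limma (95% confidence interval 1.97 to 2.71, log2 fold change 1.21, SE 0.07). Its fold was the highest of the 10 genes, and it too lies on chromosome 6. Gsn (ENSMUSG00000026879, mm10 chromosome 2, 35256380 to 35307892) had values of 4 and 3 in Myh9 KO, against 2 in both WT libraries. At this level a step of 1 in the whole numbers is a large part of the value, and the difference was not called (limma adjusted p = 0.121). None of the 50-base words of Capg, Gsn, Pfn1 and Dstn occurs in another gene.

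**Figure D3:**
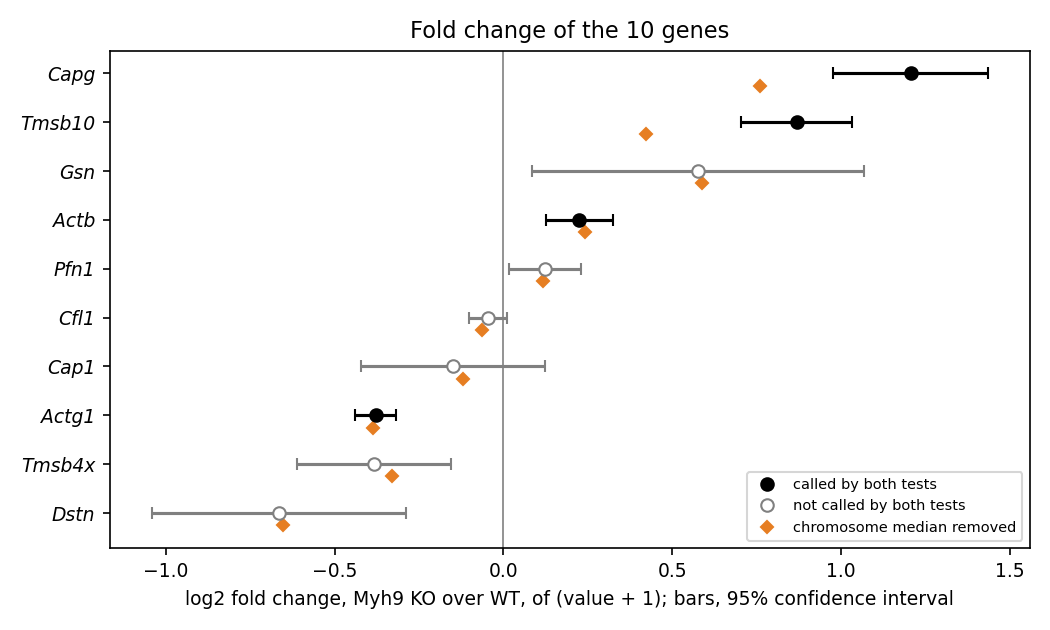
Log2 fold change of (value + 1), Myh9 KO over WT, for the 10 genes (x axis). Circles show the fit with its 95% confidence interval, filled where both fits called the gene, and diamonds the same value with the median of each chromosome removed; for Capg and Tmsb10 the diamonds lie at 0.76 and 0.42, against 1.21 and 0.87.

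Leaving out 1 library changed which genes the limma test called, and in such a fit the library left alone in its group is assumed to vary like the other group. Without WT 1 or WT 2 the limma test called none of the 10 genes higher or lower, with adjusted p of 0.232 and 0.236 for Actb and 0.0927 and 0.0932 for Actg1 (3 and 3 of the 10 at an unadjusted p under 0.05). Tmsb10 and Capg were not called whichever library was left out, with adjusted p of 0.0548 to 0.0959 for Tmsb10 and 0.0724 to 0.0818 for Capg. Actb and Actg1 remained called without either Myh9 KO library. The limma test also called 3 genes not called with all libraries when Myh9 KO 1 or Myh9 KO 2 was left out, namely Pfn1 (adjusted p = 0.0262 and 0.0463), Dstn (0.026 and 0.039) and Gsn (0.00729 and 0.00475). The 2 WT values of Gsn are equal and leave no spread. With random decimals all 4 genes remained called whichever library was left out, at adjusted p of up to 0.0439 for Actb, 0.00461 for Actg1, 7.29e-05 for Tmsb10 and 0.000379 for Capg. The fit with random decimals uses the same libraries and called 23.1% of all tested genes, against 15.1% by limma, so it is no independent check. By limma, Actb was not called after centring libraries on their median (adjusted p = 0.0735) or in a fit with no intensity trend (0.0524). The groups did not overlap in any of the 10 genes, as in 53.5% of all tested genes and 74.2% of those with means of 100 or more.

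The genes with the highest folds, Capg and Tmsb10, lie 394 kb apart on chromosome 6, with other tested genes between them. The 555 tested genes of that chromosome had a median log2 fold change of 0.45, a fold of 1.36, and 30.6% of them rose while 2.52% fell. Between 72.3 and 73.2 Mb of chromosome 6, all 12 other tested genes had a positive log2 fold change, from 0.11 to 1.29 with a median of 0.44, and 4 of them rose. Of these Retsat, named after its values were seen, had 29 and 30 in Myh9 KO, against 11 and 12 in WT. With the chromosome median removed in each library, the log2 fold change was 0.76 for Capg (adjusted p = 0.0153) and 0.42 for Tmsb10 (adjusted p = 0.0364), and the other 8 genes moved by less than 0.1. The part of the chromosome-wide shift in the rise of Capg and Tmsb10 was not tested beyond this step.

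The 10 lists of other actin machinery had 106 genes in the table, of which 84 were tested. Of these 5 rose and 7 fell, near the shares over all tested genes (5.13% rose and 5.82% fell), against which the counts of each list are also to be read. Of these 12 calls, those of Brk1 and Cct7 remained in both fits whichever library was left out, and each of the other 10 ended in at least 1 of the fits. All 6 tested list genes on chromosome 6 had positive log2 fold changes (median 0.46, 3 rose), against 31 positive and 42 negative of the 78 on other chromosomes (median -0.08, 2 rose and 7 fell). Of all 555 tested genes of chromosome 6, 468 were positive, with a median of 0.45. Of all 10676 tested genes not on chromosome 6, 4607 were positive and 5316 negative, with a median of 0, and 406 rose and 640 fell. No difference between the list genes and either of these sets was tested. These lists, like the 10 genes, were chosen with results of these data known.

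Of 7 tested monomer-binding genes of the same families, 1 fell, Cfl2 (8 in both Myh9 KO libraries, against 13 in both WT libraries). Tmsb15b1, Tmsb15b2 and Tmsb15l overlap each other on the X chromosome, so their values are uncertain. The median log2 fold change of the 7 was -0.35, and 0.01 after correction for GC content and length. After that step Cfl2 was at -0.32 and not called, while limma called 1 other gene of the list lower and 0 higher. Of the other gelsolin relatives 2 were tested and limma called 0 (0 at an unadjusted p under 0.05, and 0 with random decimals). Flii had values of 69 and 78 in Myh9 KO, against 63 and 64 in WT, and Svil 3 and 1, against 1 and 2.

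Of 14 tested cofilin regulators and disassembly partners 1 rose and 1 fell. Coro1b rose (log2 fold change 0.22, limma adjusted p = 0.0323), a call that ended after correction for GC content and length, at 0.07. Wdr1, which works with cofilin in disassembly, fell to 89 and 92 in Myh9 KO, against 109 and 111 in WT (-0.28, adjusted p = 0.0301). The median of the list was 0.14, and -0.02 after correction for GC content and length, when 1 gene was called higher and 4 lower.

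Among 10 subunit genes of the Arp2/3 complex, which starts branched filaments, Arpc4 rose and Arpc2 and Arpc3 fell. Arpc4, on chromosome 6, had values of 386 and 365 in Myh9 KO, against 265 and 274 in WT (log2 fold change 0.48, limma adjusted p = 0.0276); with the chromosome median removed it was at 0.03 and not called. Arpc3 had 204 and 210 in Myh9 KO, against 244 and 249 in WT, and Arpc2 had 137 and 136, against 158 and 163. After correction for GC content and length Arpc2 and Arpc3 were no longer called, and the median of the list was -0.04, against -0.19 without that step. Arpc2 was also not called with the chromosome median removed.

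Of 13 tested WASP and WAVE activators, which switch on that complex, 2 rose. Brk1, a small WAVE subunit encoded on chromosome 6, had values of 324 and 322 in Myh9 KO, against 193 and 194 in WT (log2 fold change 0.74, limma adjusted p = 0.00111). With the chromosome median removed Brk1 remained called at 0.29 (adjusted p = 0.0242). Cyfip2, encoded on chromosome 11, had 5 and 6 in Myh9 KO, against 2 in both WT libraries. At this level a step of 1 is a large part of the value, and the equal WT values leave no spread. Among genes with a mean of at least 10, to which Cyfip2 does not belong, limma called 1 gene of the list.

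Of 8 tested genes of filament end capping limma called 0, with 3 at an unadjusted p under 0.05 and 1 called with random decimals. After correction for GC content and length 2 were called higher and 1 lower, the last being Add1 (log2 fold change -0.24, adjusted p = 0.0191, against -0.17 and 0.132 without that step). Capzb had values of 261 and 267 in Myh9 KO, against 285 and 291 in WT, and Add1 had 108 and 104, against 116 and 123. Of 10 tested formins and Ena/VASP proteins limma called 0, with 3 at an unadjusted p under 0.05 and 2 called with random decimals. After correction for GC content and length 1 was called higher and 1 lower, and with the chromosome median removed 2 were called higher, among them Vasp (log2 fold change 0.20, adjusted p = 0.0445). Vasp had values of 188 and 194 in Myh9 KO, against 165 and 172 in WT, and Enah 37 and 26, against 39 and 45.

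Newly made actin is folded by the CCT chaperonin with prefoldin. Of 17 tested genes of folding and N-terminal processing 1 rose and 3 fell, and 13 log2 fold changes were negative. Cct7, the chaperonin subunit encoded on chromosome 6, rose to 1045 and 1052 in Myh9 KO, against 764 and 771 in WT (log2 fold change 0.45, limma adjusted p = 0.00322), but was not called with the chromosome median removed. Cct3 fell to 370 and 364 in Myh9 KO, against 442 and 447 in WT (-0.28, adjusted p = 0.0135). Cct5 had 406 and 391, against 468 and 464, and Pfdn1 had 151 and 147, against 175 and 177. The median of the list was -0.19, and 0.01 after correction for GC content and length, after which 3 genes were called higher and 1 lower, Cct5 and Pfdn1 not among them. The limma test called 9 genes of the list among genes with a mean of at least 10, and the fit with random decimals called 12, against 4 called by both. Cct3 and Pfdn1 were also not called with the chromosome median removed, nor Cct5 with libraries centred on their median. The genes of the list have a median GC content of 46.7%, in the fifth of all tested genes whose median log2 fold change was -0.07. That median was -0.15 in the fifth of lowest GC content (31.0% to 45.0%) and 0.11 in that of highest (56.1% to 76.3%).

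Srf and its actin-sensing cofactors were not called by limma (0 of 3 tested, 0 at an unadjusted p under 0.05, and 0 with random decimals), but 1 was called lower after correction for GC content and length, Srf itself (log2 fold change -0.27, adjusted p = 0.0385, against -0.15 without that step). Srf had values of 29 and 34 in Myh9 KO, against 34 and 36 in WT, and Mrtfa, listed as Mkl1, had 14 and 18, against 13 and 14.

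**Figure D4:**
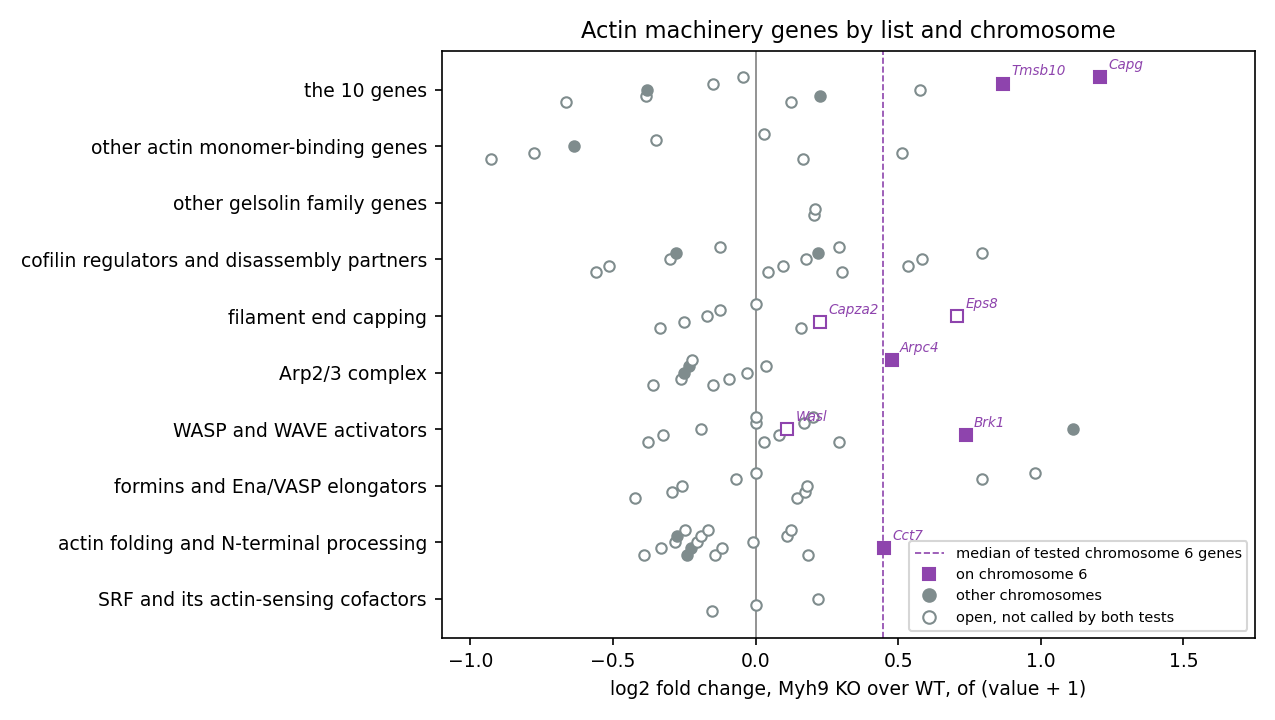
Log2 fold change of (value + 1), Myh9 KO over WT (x axis), for the 10 genes and each list of actin machinery, with 1 point per tested gene. Purple squares are genes on chromosome 6, which all lie above 0, and the dashed line is the median of all tested genes of that chromosome (0.45); filled points were called by both fits.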

How the data were processed

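The authors deposited a table of 50600 genes with a whole-number value per library, treated here as a score, since totals are nearly equal; no count of reads was given and depth is unknown. Bowtie2 2.2.5, RSEM 1.3.0 and bcl2fastq, and the builds mm10 and hg38, appear by name only, per the submitters' processing notes, and their use is not given in the sources used here. The labels' protocols describe oligo-dT enrichment and random hexamers. Coordinates are the table's and were the same in GENCODE vM21 (mm10) for 92.9% of matched identifiers. Because the values were not counts, limma-trend (limma 3.58.1, R 4.3.3) was fitted to log2(value + 1), which understates changes of low genes, for genes with a mean of at least 1, without a replicate block. Benjamini-Hochberg adjustment ran over all 11231 genes. The second fit added uniform numbers between 0 and 1 before the log and took the median adjusted p of 25 draws. On simulated data the limma fit alone also called genes that had not been changed. Genes called by both fits are always among those called by limma, so both together could not call more of these. No rate of false calls in the real data follows from this, and a call by limma alone is treated here as weaker.

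The members and lists were chosen with earlier results of these data known. Named genes are the 10 members, Myh9, up to 4 called members of each list (the 2 of highest mean where none was called) and the 3 nearest profiles of each actin. List symbols absent from the table were looked up by identifier, and Pdxp is not analysed here. GC content and length are of the longest GENCODE transcript, and words are all 50-base stretches of a gene's transcripts; a near-copy has at least 50% of its own words in a member. The GC and length trend was a natural spline with 4 degrees of freedom each, per library. Alternatives were pseudocounts of 0.5 and 5, no filter on low values or a mean of at least 10, a replicate block, random decimals, median centring, quantile normalization, removal of the GC and length trend or of each chromosome's median, no intensity trend, and leaving out each library.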

Additional observations from a re-analysis of the deposited data

How the results depend on the processing

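Depth is unknown, so counting error cannot be given, and low values such as those of Gsn move in steps of 1. The log2 fold change of each of the 10 genes kept its sign under every alternative run. The Actb call ended also without an intensity trend. No pairing of the libraries is stated. The correlation of same-numbered deviations was 0.0407, which cannot show whether libraries were prepared in pairs. With the replicate block, which leaves few degrees of freedom, 10 genes were called higher and 44 lower, with 0 and 0 of the 10 genes and 0 and 0 of the list genes. All genes called higher and lower numbered 805 and 894 in the limma test, 1242 and 1347 with random decimals, and 1402 higher after correction for GC content and length. Leaving out a library gave 599 to 1272 higher and 701 to 1510 lower, the largest of these with random decimals. Of the 10 genes, 1 was lower in the limma test, 2 after correction for GC content and length, and 3 with a mean value of at least 10, random decimals, median centring or the chromosome median removed, Dstn being the added gene in the first and Dstn and Tmsb4x in the others. Leaving out a library gave 0 to 4 higher and 0 to 3 lower. Of the list genes, 5 were higher and 7 lower in the limma test, 10 higher with random decimals or after correction for GC content and length, and 13, 18 and 11 lower with a mean value of at least 10, random decimals or median centring. Leaving out a library gave 3 to 9 higher (8 without Myh9 KO 1) and 2 to 22 lower. The difference in the summed share of Actb and Actg1, near 0, ran from -0.0121 without Myh9 KO 2 to 0.0137 percentage points. The ratio and the other sums kept their direction without any library and with near-copies added. Random decimals with a library left out and the addition of near-copies were chosen after seeing the data. No row was named as a pseudogene of a member, so that alternative was not run. Where a call changed, the cause was not tested.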
